A study of Mus musculus with 16 samples.

Results

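The slow fiber contractile genes are 10 genes, Myh7, Myl2, Myl3, Tnnc1, Tnni1, Tnnt1, Tpm3, Atp2a2, Casq2, and Pln, which were taken by gene name out of the 23235 gene names of the mRNA table. Skeletal muscle RNA was sequenced from 16 male C57BL/6J mice, with 4 mice in each of 4 groups and 1 library for each mouse. The mice were purchased at 6 weeks of age. The control group was fed a normal diet, and the HFD group received a diet with 60% fat for 8 weeks. The HFD + RSV and HFD + metformin groups were given this diet for 8 weeks and were then treated for 6 weeks with resveratrol (RSV), a plant polyphenol, or with metformin, a glucose-lowering drug. All high-fat groups therefore share the diet, and no group received RSV or metformin on the normal diet. Whether the HFD group stayed on the diet during the 6 weeks of treatment is not given in the sources used here. If it was collected at 8 weeks, diet length and age cannot be told apart from treatment when treated mice are compared with HFD mice. The muscle that was taken and the metformin dose are not given in the sources used here, and some mice of the study received insulin shortly before collection, without a statement of which ones. Mice are numbered 1 to 4 within each group only to name them. The sample titles of all HFD mice carry the same leading number, whereas those of the other groups carry more than 1, and what this number marks is not given. If it marks a cage or batch, that cage or batch and the HFD group cannot be told apart.

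Skeletal muscle is made of fast and slow fibers. Slow fibers contract slowly, resist fatigue, rely on oxidative metabolism, and are common in postural muscles such as the soleus, whereas most limb muscles of the mouse are dominated by fast fibers. Each fiber type builds its sarcomere from its own paralogs, so that a slow myosin heavy chain, slow troponins, and a slow calcium pump replace the fast versions. Most of the slow genes are also the genes of the heart.

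The summed counts of the mRNA table ranged from 17625909 to 29761026 per mouse, and all 10 genes passed the filter on low counts among 15364 genes tested. Levels within a gene are given as CPM, the count scaled to a common library size with TMM factors, and levels between genes as FPKM, which is also divided by transcript length. The muscle label was checked because the protocol text of the labels also speaks of retinas. The 5 skeletal muscle markers summed to between 160867 and 309599 CPM in every mouse, whereas the 4 of 6 retina markers present in the table summed to at most 1.33 CPM. No 2 libraries were identical. Replicates are separate mice.

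The slow genes formed a small part of the contractile RNA in every mouse. Median FPKM over the 16 mice was highest for Atp2a2 (35.6), Myl3 (32.9), and Tpm3 (18.4), followed by Myl2 (14.1), Myh7 (10.2), Tnnc1 (7.04), Tnnt1 (6.01), Casq2 (4.56), and Tnni1 (4.35), and lowest for Pln (0.611). The ranges of neighbors in this order overlapped, so the order is not fixed beyond the spread between mice. The spread was wide, since the highest mouse exceeded the lowest mouse in CPM by 338-fold for Myh7, 330-fold for Myl3, 146-fold for Tnnc1, 92.7-fold for Tnnt1, 79.3-fold for Myl2, and 78.6-fold for Tnni1. It was narrower for Pln (18.3-fold), Atp2a2 (9.85-fold), Tpm3 (7.09-fold), and Casq2 (6.71-fold). The biological coefficient of variation within groups lay between 0.440 (Tpm3) and 1.12 (Myh7), above 91.1% to 98.7% of the genes tested, whose median was 0.179.

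Myh7 encodes the slow myosin heavy chain, the motor protein that defines the slow fiber. In the control group, its level was 2.81, 917, 457, and 523 CPM in mice 1 to 4. In the HFD group, it was 17.4, 6.61, 59.4, and 2.71 CPM. It was 7.07, 189, 39.3, and 531 CPM in the HFD + RSV group and 70.8, 138, 59.1, and 38.0 CPM in the HFD + metformin group. Control mice 2, 3, and 4 were far above all HFD mice, whereas control mouse 1 was close to the lowest HFD mouse, so that the groups overlapped. The lowest values rest on few counts, 50 of Myh7 in control mouse 1. Fewer slow fibers in the piece of muscle and less Myh7 RNA per fiber cannot be told apart in RNA of whole muscle.

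The essential and regulatory light chains, which bind the neck of the myosin head, followed the same mice. Myl3, the essential light chain of slow fibers and ventricle, was at 1.91, 264, 52.5, and 303 CPM in the control mice and at 9.87, 5.49, 24.8, and 0.919 CPM in the HFD mice. It reached 1.83, 39.8, 17.8, and 148 CPM in the HFD + RSV mice and 42.5, 102, 47.8, and 31.4 CPM in the HFD + metformin mice. All metformin-treated mice were above all HFD mice for Myl3, and the other groups overlapped. Myl2, the regulatory light chain, was at 1.74, 102, 52.1, and 65.8 CPM in the control mice, from 1.29 to 11.6 CPM in the HFD group, from 3.40 to 52.8 CPM in the HFD + RSV group, and from 6.83 to 23.2 CPM in the HFD + metformin group.

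The troponin complex makes contraction depend on calcium, with Tnnc1 as the calcium sensor, Tnni1 as the inhibitor, and Tnnt1 as the link to tropomyosin. Tnnc1 was at 0.955, 94.0, 45.2, and 56.6 CPM in the control mice and at 2.34, 1.79, 8.00, and 0.643 CPM in the HFD mice. It was at 2.01, 23.4, 3.64, and 66.3 CPM in the HFD + RSV mice and at 5.00, 16.1, 5.49, and 4.92 CPM in the HFD + metformin mice. Tnni1 ranged from 0.730 to 50.5 CPM in control mice, 0.643 to 6.81 CPM in HFD mice, 2.33 to 34.0 CPM with RSV, and 3.08 to 15.9 CPM with metformin. Tnnt1 ranged from 1.63 to 59.6 CPM, 0.643 to 7.03 CPM, 3.09 to 40.2 CPM, and 4.28 to 11.4 CPM in the same order of groups. For the 3 troponin genes, the low control value was that of mouse 1 and the high HFD + RSV value that of mouse 4.

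**Figure D1:**
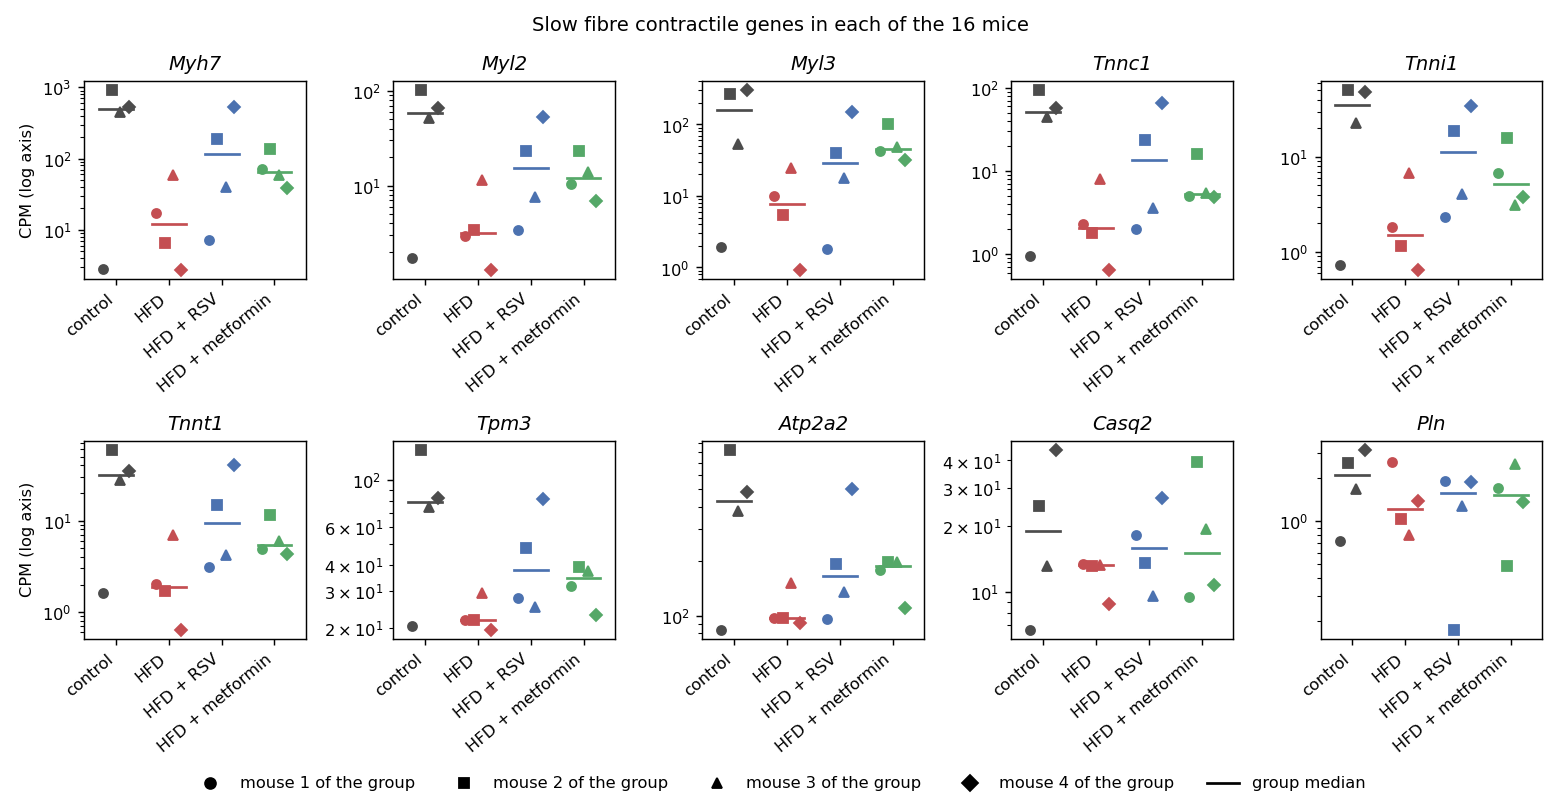
Level of each of the 10 slow fiber contractile genes (CPM, log axis) in each mouse, by group; the symbol gives the number of the mouse within its group, and the line is the group median. Control mouse 1 is the lowest of its group for all 10 genes, and for Myh7 the other control mice lie between 457 and 917 CPM against 2.71 to 59.4 CPM in the HFD group.

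Promoter sequences of these genes are shown because their levels moved together across the mice. RefSeq windows on GRCm38.p6 were found for 9 of the 10 genes, in 13 windows, and the 250 bases before a transcription start are given 5′ to 3′ on the strand of the gene. Capitals mark CATTCC or its reverse GGAATG, the core of the MCAT element that TEAD factors bind, and CAGCTG, an E-box of the kind that myogenic factors bind. The windows shown for Myh7 (chr14:54994627-54994876, minus strand), Myl3 (chr9:110763428-110763677, plus strand), and Tnnc1 (chr14:31208062-31208311, plus strand) are those of the member genes that hold the MCAT core.
Myh7: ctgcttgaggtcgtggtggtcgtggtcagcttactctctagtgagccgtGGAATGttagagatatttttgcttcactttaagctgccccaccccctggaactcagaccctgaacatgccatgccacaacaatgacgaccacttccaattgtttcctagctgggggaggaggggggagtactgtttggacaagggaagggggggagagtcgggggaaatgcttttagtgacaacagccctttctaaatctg
Myl3: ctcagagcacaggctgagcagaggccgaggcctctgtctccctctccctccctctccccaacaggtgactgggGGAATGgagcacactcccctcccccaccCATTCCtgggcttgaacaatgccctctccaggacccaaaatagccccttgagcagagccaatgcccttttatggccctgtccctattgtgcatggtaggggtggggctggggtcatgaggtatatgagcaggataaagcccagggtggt
Tnnc1: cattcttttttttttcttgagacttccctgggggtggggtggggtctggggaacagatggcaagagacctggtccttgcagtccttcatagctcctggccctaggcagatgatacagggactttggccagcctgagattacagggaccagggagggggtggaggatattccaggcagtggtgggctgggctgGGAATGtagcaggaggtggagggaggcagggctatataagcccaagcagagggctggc
CATTCC or GGAATG was present in these 3 of the 13 windows, and in 12.6% of all 32851 promoter windows of this length. CAGCTG was present in 4 of the 13 windows, of Myl2, Tnni1, and Tpm3, against 13.0% of all windows, and the MEF2 motif in 1, that of Casq2, against 2.92%. The 2 windows of Tnni1 overlap and share their E-box. The windows of Myl2 lie before RefSeq starts at bases 122092724 and 122093189 of chromosome 5. All deposited Myl2 transcripts start at base 122100951 or later, so neither window directly precedes a start counted here. The marked elements do not overlap each other. These matches are descriptions of the letters and not of binding.

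Tpm3 encodes slow tropomyosin, which covers the myosin sites on actin, but it also encodes short cytoskeletal tropomyosins that many cells make from an internal start. Summed over its 16 deposited transcripts, Tpm3 was at 20.6, 139.7, 75.2, and 82.4 CPM in the control mice, 19.7 to 29.4 CPM in the HFD group, 25.1 to 82.0 CPM in the HFD + RSV group, and 23.0 to 39.1 CPM in the HFD + metformin group. The gene lies on chromosome 3 from 90072649 to 90100902 on the plus strand. The windows before its upstream start (chr3:90072401-90072650, plus strand) and its internal start (chr3:90079271-90079520, plus strand) are given for comparison, with the E-box in capitals.
Tpm3 upstream start: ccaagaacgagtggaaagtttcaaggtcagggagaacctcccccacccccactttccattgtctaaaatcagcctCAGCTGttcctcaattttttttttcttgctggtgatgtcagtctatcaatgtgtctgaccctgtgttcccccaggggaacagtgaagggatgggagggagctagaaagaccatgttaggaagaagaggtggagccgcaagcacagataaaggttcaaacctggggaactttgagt
Tpm3 internal start: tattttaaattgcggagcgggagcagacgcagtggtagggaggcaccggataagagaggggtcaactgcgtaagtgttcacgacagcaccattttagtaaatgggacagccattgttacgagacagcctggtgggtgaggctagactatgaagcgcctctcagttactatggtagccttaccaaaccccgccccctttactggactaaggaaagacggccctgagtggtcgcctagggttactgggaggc
Only the upstream window holds CAGCTG, and neither holds the MCAT core. The 2 transcripts from the upstream start encode 284 and 285 residues by GENCODE M21, whereas the 2 most abundant protein-coding transcripts from the internal start encode 248 residues. Transcripts from the upstream start were at 5.28, 110.2, 46.0, and 57.2 CPM in the control mice and at 9.22, 3.53, 9.46, and 1.75 CPM in the HFD mice. They were at 15.9, 32.7, 10.7, and 62.3 CPM in the HFD + RSV mice and at 18.7, 24.9, 22.5, and 5.43 CPM in the HFD + metformin mice. All RSV-treated mice were above all HFD mice for the sum of the upstream transcripts, a pattern noticed after the values were seen and not tested. Neither upstream transcript showed it alone. The one of 284 residues held 38 to 214 counts in HFD mice and 84 to 1286 counts in RSV-treated mice. The one of 285 residues held 0 to 146 and 108 to 259 counts. The share of all transcripts with such a pattern was not computed. The other 14 transcripts together stayed between 11.9 and 29.5 CPM over all 16 mice, a 2.47-fold range against 63.1-fold for the upstream start. The upstream start gave from 8.86% of the Tpm3 counts in HFD mouse 4 to 78.9% in control mouse 2. Reads in shared exons were divided between transcripts by the counting program, so these shares are estimates.

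**Figure D2:**
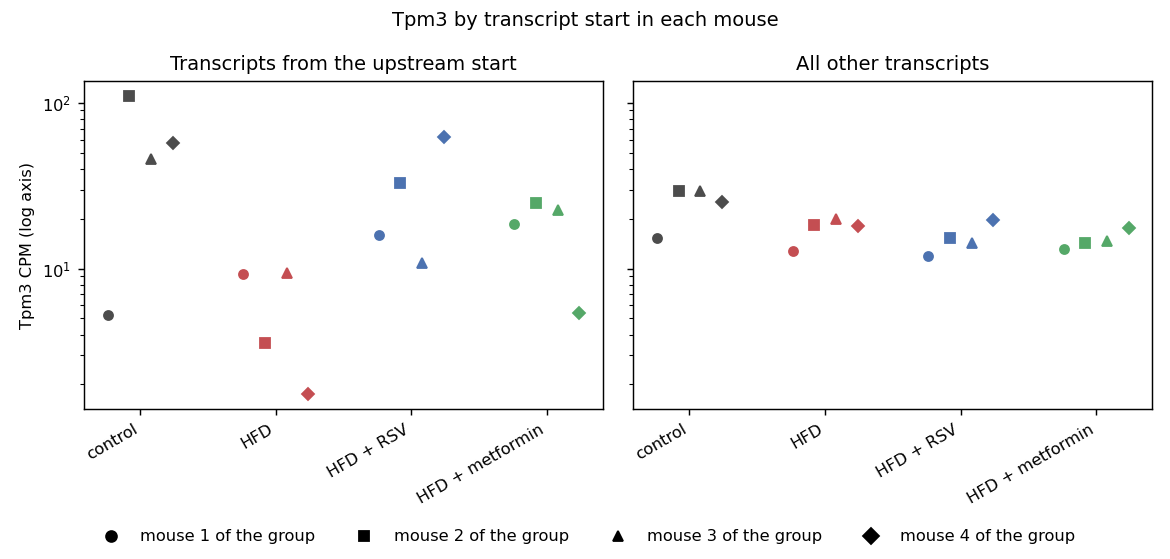
CPM (log axis) of Tpm3 transcripts from the upstream start (left) and of all other Tpm3 transcripts (right) in each mouse, by group, with the symbol giving the number of the mouse. The upstream transcripts span 1.75 to 110.2 CPM, and the others span 11.9 to 29.5 CPM.

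Calcium handling genes spread less between mice than the myosin and troponin genes. Atp2a2 encodes SERCA2, the pump that returns calcium to the sarcoplasmic reticulum in slow fibers and heart. It was at 83.9, 826, 379, and 481 CPM in the control mice, at 91.1 to 153 CPM in the HFD group, at 96.2 to 498 CPM in the HFD + RSV group, and at 110.5 to 198 CPM in the HFD + metformin group. The transcript encoding 998 residues, the shorter muscle form SERCA2a, held 65.4% to 93.0% of the Atp2a2 counts in single mice. Casq2, the slow and cardiac calsequestrin that stores calcium in the reticulum, was at 6.68, 24.7, 13.1, and 44.9 CPM in the control mice and 13.4, 13.1, 13.3, and 8.77 CPM in the HFD mice. Among treated mice, its highest values were 39.3 CPM in HFD + metformin mouse 2 and 26.8 CPM in HFD + RSV mouse 4. Pln, phospholamban, the inhibitor of the SERCA2 pump, stayed between 0.173 and 3.17 CPM on 4 to 79 counts, and all groups overlapped.

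The comparison of the HFD group with the control group asked what the diet does to the slow fiber program. All 10 genes had a lower fitted level in the HFD group, with a median log2 fold change of −3.49 against −0.02 for all genes tested. None of the 10 was called at an adjusted P below 0.05 by the edgeR quasi-likelihood test with Benjamini-Hochberg adjustment over all genes tested, a rule that called 2.43% of them, and 1.11% as lower in the HFD group. At an unadjusted P below 0.05, 8 of the 10 were lower, against 12.5% of all genes. The study screened genes at P below 0.05 and an absolute log2 fold change above 1. With these limits on the unadjusted P, the same 8 genes passed, and 4.03% of all genes passed as lower. DESeq2 called these 8 genes at its adjusted P, with 5.03% of all genes called as lower. Myh7 had a log2 fold change of −4.46 ± 1.45 (SE, n = 4 mice per group, edgeR adjusted P = 0.0941). Tpm3 had the smallest adjusted P, with a log2 fold change of −1.78 ± 0.47 (SE, edgeR adjusted P = 0.0584). The values of Myl2 (−3.53), Myl3 (−3.92), Tnnc1 (−3.95), Tnni1 (−3.55), Tnnt1 (−3.44), and Atp2a2 (−2.01) had adjusted P values from 0.0715 to 0.105 in the same fit. Casq2 (−0.88) and Pln (−0.49) had adjusted P values of 0.330 and 0.659 in that fit.

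The edgeR call in this comparison turned on control mouse 1. This mouse was the lowest control mouse for all 10 genes and was below the median HFD mouse for each of them. The other 3 control mice were each above every HFD mouse for 8 of the 10 genes, a pattern that 14.2% of all genes tested showed. Control mouse 1 was singled out by the values of these same genes. The 14.2% was taken with this same mouse set aside, not with the lowest control mouse of each gene. This pattern and the calls without this mouse are therefore partly given by that choice. Without control mouse 1, edgeR called 7 genes as lower in the HFD group, namely Myh7, Myl2, Tnnc1, Tnni1, Tnnt1, Tpm3, and Atp2a2, at adjusted P values from 0.0197 to 0.0417, while 1.91% of all genes were called as lower. The log2 fold change of Myh7 was then −4.87 ± 1.24 (SE). Leaving out any other single mouse gave 0 calls, except that Tpm3 was called without HFD + metformin mouse 3 (edgeR adjusted P = 0.0357). Without control mouse 2, the mouse with the highest Myh7, the value of Myh7 was −3.93, with an edgeR adjusted P of 0.167.

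**Figure D3:**
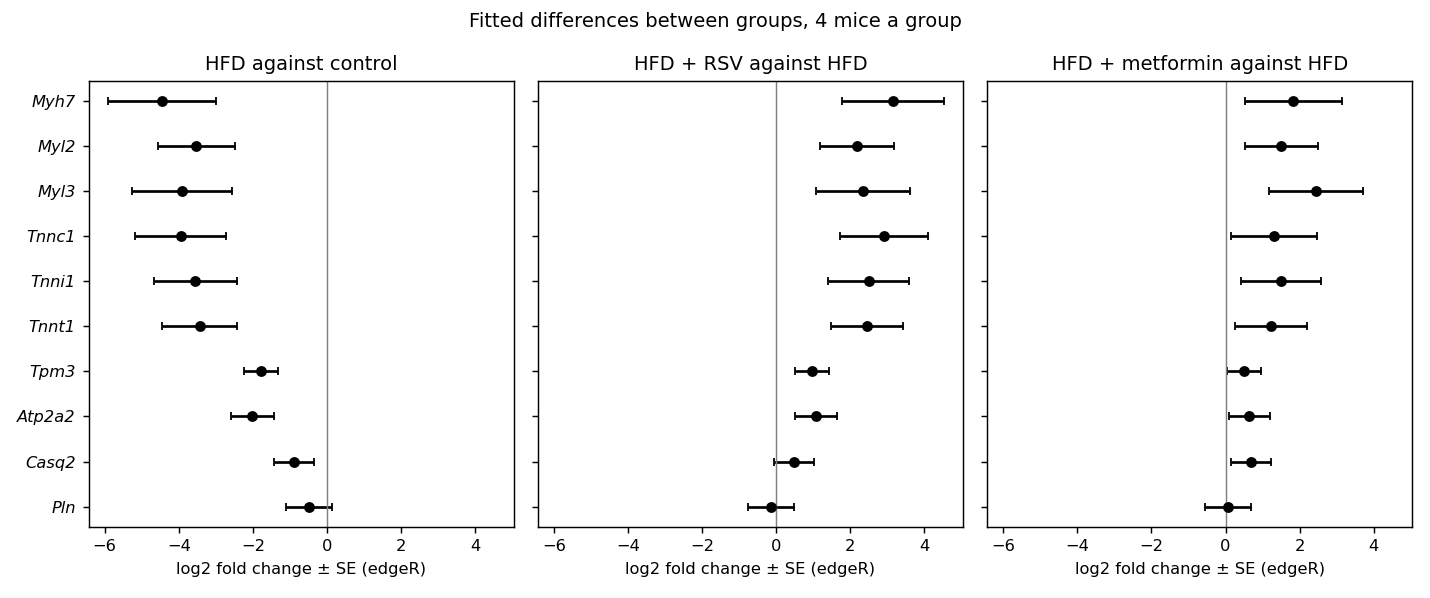
Fitted log2 fold change (x axis, points, with bars of ± 1 SE from the edgeR fit to 16 mice) for each gene between the HFD and control groups (left), the HFD + RSV and HFD groups (middle), and the HFD + metformin and HFD groups (right). The values for HFD against control run from −4.46 (Myh7) to −0.49 (Pln), and no value was called at an adjusted P below 0.05.

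The comparison of the HFD + RSV group with the HFD group asked whether RSV acts on the muscle of high-fat-fed mice. The fitted level was higher in the HFD + RSV group for 9 of the 10 genes, with a median log2 fold change of 2.26 against 0.00488 for all genes. None was called at the adjusted P of edgeR or DESeq2, which called 0% and 0.0521% of all genes. At an unadjusted P below 0.05 with a log2 fold change above 1, 5 genes were higher (Myh7, Myl2, Tnnc1, Tnni1, and Tnnt1), against 0.885% of all genes. The log2 fold change of Myh7 was 3.15 ± 1.37 (SE, edgeR adjusted P = 0.999), and that of Pln was −0.14. The groups overlapped for all 10 genes, where 1.88% of all genes were higher in every RSV-treated mouse. HFD + RSV mouse 4 was the highest of its group in 9 of the 10 genes, and without it the log2 fold change was 1.86 for Myh7 and 0.95 for Myl3, with edgeR adjusted P values of 0.999. Both this and the preceding comparison use the same HFD mice.

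The comparison of the HFD + metformin group with the HFD group asked the same of metformin. All 10 genes had a higher fitted level in the HFD + metformin group, with a median log2 fold change of 1.27 against 0.02 for all genes. None was called by edgeR (0.013% of all genes) or DESeq2 (0.219%), and 0 were below an unadjusted P of 0.05, where 5.23% of all genes were higher. Myl3 had the highest value, a log2 fold change of 2.44 ± 1.27 (SE, edgeR adjusted P = 0.636), and it was the gene of the 10 whose groups did not overlap, as was the case for 1.83% of all genes tested in this direction. The log2 fold change of Myh7 was 1.83 ± 1.31 (SE, edgeR adjusted P = 0.707). For Myh7, the highest metformin-treated mouse exceeded the lowest 3.64-fold, against 326-fold, 75.2-fold, and 21.9-fold in the control, HFD + RSV, and HFD groups.

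Against the control group, all 10 genes had a lower fitted level in both treated groups. The median log2 fold change was −1.02 in the HFD + RSV group and −1.75 in the HFD + metformin group, and edgeR and DESeq2 called 0 of the 10 genes in either comparison. Over all genes, edgeR called 0.00651% with RSV and 0% with metformin, and DESeq2 called 2.7% and 0.918%. At an unadjusted P below 0.05, 0 of the 10 were lower in the HFD + RSV group (7.98% of all genes) and 4 in the HFD + metformin group (Tnnc1, Tnnt1, Tpm3, and Atp2a2, against 4.15% of all genes). Between the HFD + RSV and HFD + metformin groups, 7 genes had a higher fitted level with RSV and 3 with metformin. In that comparison, 0 of the 10 were called by edgeR (0% of all genes) or DESeq2 (0.0651%), and 0 were below an unadjusted P of 0.05 (4.68% of all genes). These comparisons share control or treated mice with the preceding ones.

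The share of slow myosin among the 4 adult myosin heavy chains of muscle, by FPKM, is a ratio within each library. Myh7 made up 0.00456%, 2.24%, 1.37%, and 1.15% of this sum in the control mice and 0.0328%, 0.0183%, 0.113%, and 0.00800% in the HFD mice. It made up 0.0170%, 0.364%, 0.0775%, and 0.943% in the HFD + RSV mice and 0.155%, 0.272%, 0.183%, and 0.0614% in the HFD + metformin mice. The means were 1.19% ± 0.92 in the control, 0.0430% ± 0.0478 in the HFD, 0.350% ± 0.423 in the HFD + RSV, and 0.168% ± 0.087 in the HFD + metformin group (SD, n = 4 each). The exact two-sided permutation test gave P = 0.143 for the HFD against the control group (adjusted P = 0.257 over 6 comparisons). It gave P = 0.0571 for HFD + metformin against HFD and P = 0.229 for HFD + RSV against HFD (exact test, adjusted P = 0.257 and 0.274). The smallest P that 4 mice against 4 can give is 0.0286. Myh4, the fastest type IIb chain, held 64.4% to 95.4% of the sum in single mice, and Myh2, the IIa chain, held 0.620% to 12.9%.

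**Figure D4:**
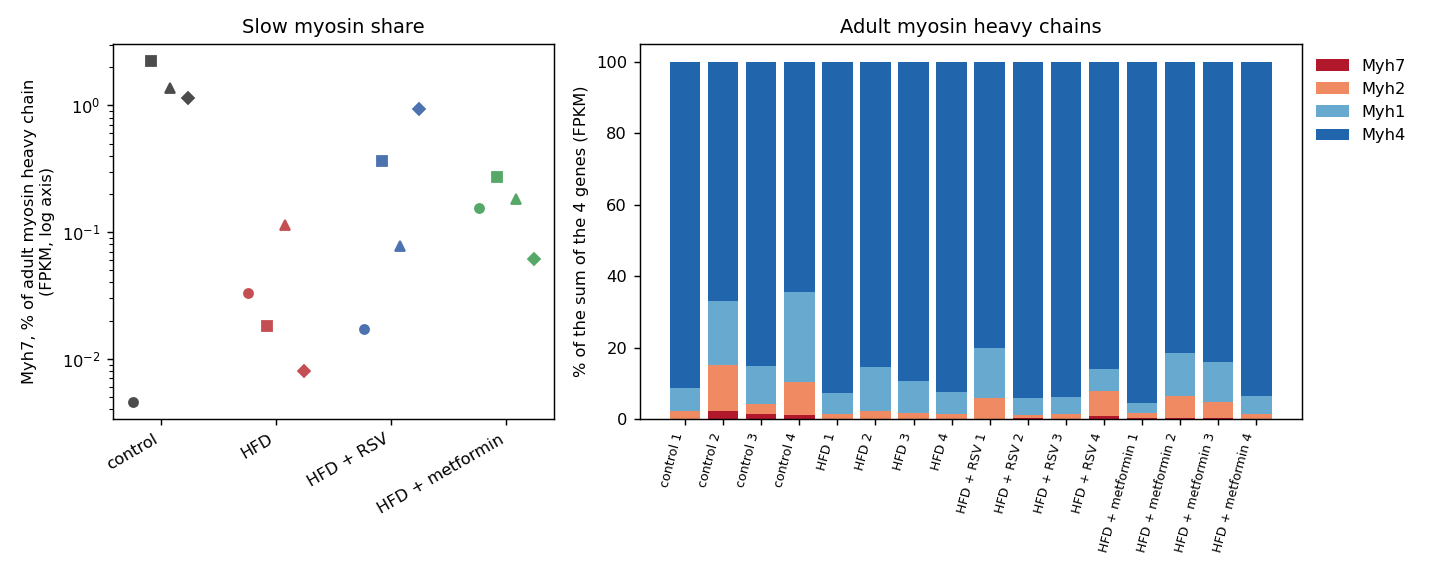
Left, Myh7 as a percentage of the summed FPKM of Myh7, Myh2, Myh1, and Myh4 (log axis) in each mouse, by group, with circle, square, triangle, and diamond for mice 1 to 4. Right, stacked bars from 0 to 100% for the same 4 genes in each mouse, in which Myh4 holds 64.4% to 95.4% and Myh7 at most 2.24%.

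The other slow genes were also small against their fast paralogs. Against Tnnc2 (fast troponin C), Tnnc1 held 0.0696%, 8.37%, 4.80%, and 5.19% of the sum of the pair in FPKM in the control mice, and 0.0327% to 0.477% in the HFD group. Against Myl1, Myl3 held 0.0577% to 12.4% in control mice, 0.0308% to 0.696% in HFD mice, and 0.744% to 3.04% with metformin. Against Atp2a1, the fast SERCA1 pump, Atp2a2 held 0.215% to 2.97% in control mice and 0.219% to 0.370% in HFD mice. Against Casq1, Casq2 held 0.326% to 3.49% and 0.374% to 0.481% in these groups. For all of these pairs, the lowest control share was that of mouse 1.

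Across the 16 mice, 8 of the 10 genes varied together. After subtraction of the group means of log2 CPM, Pearson's r with Myh7 was 0.984 for Myl2, 0.983 for Tnnc1, 0.977 for Tnnt1, 0.973 for Tnni1, 0.964 for Myl3, 0.929 for Atp2a2, and 0.917 for Tpm3, with Spearman's rho between 0.929 and 0.979. Casq2 had r = 0.613 and rho = 0.600, and Pln had r = 0.106 and rho = 0.050. Without the 2 mice farthest from the median (control mouse 1 and HFD + RSV mouse 1), r stayed between 0.833 and 0.970 for the 7 genes, and was 0.563 for Casq2 and −0.05 for Pln. The points share the library and its depth, so these values describe these 16 libraries. By the mean r with Myh7, Tnni1, and Tnnt1, ranks 1 to 8 of the 15364 genes tested were held by Tnnc1, Myh7, Tnnt1, Tnni1, Myl2, Myl3, Atp2a2, and Tpm3, while Casq2 had rank 115 and Pln rank 6053. Part of this order is given by construction, since 3 of the genes define the measure. The ratio of Tnni1 to Myh7 in FPKM varied 4.94-fold between mice and that of Tnnc1 6.36-fold, against 79.6-fold and 149.7-fold for their levels. For Tpm3, Atp2a2, Casq2, and Pln, the ratio varied more than the level, 39.9-fold against 9.59-fold for Tpm3 and 91.4-fold against 7.46-fold for Casq2. The genes outside the list with the highest mean r were Tomm5 (0.862), 2900052L18Rik (0.852), and Htr7 (0.841), followed by Igsf11, AC124709.2, Ptprr, Nkain2, Slc16a4, Xpo4, and Inpp5k (0.824 to 0.804). Of these 10, 8 stayed among the top 10 without control mouse 2. That mouse was left out for its highest Myh7 CPM, and the group means were not taken again. The 2 mice farthest from the median were kept, so dependence of this list on them was not tested. Tomm5, a small subunit of the mitochondrial import pore, ranged only from 12.1 to 19.8 CPM. Most of the others were at low levels. 2900052L18Rik, Htr7, Igsf11, Ptprr, Nkain2, and Slc16a4 were at most 2.03 CPM in any mouse, and AC124709.2 at most 4.79 CPM.

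Other genes that are known to be high in slow fibers were less uniform. Of 10 such genes, 9 were tested and 0 were called by edgeR between the HFD and control groups, with 5 lower in HFD at an unadjusted P below 0.05 (Car3, Csrp3, Myoz2, Sln, and Myl6b, against 12.5% of all genes) and a median log2 fold change of −1.45. DESeq2 called Car3 and Csrp3 as lower, against 5.03% of all genes. Car3, a carbonic anhydrase of slow fibers that adipocytes also make in quantity, was at 837, 571, 2393, and 1087 CPM in the control mice and at 313 to 361 CPM in the HFD group. These groups did not overlap, as for 9.44% of all genes in this direction, and the value was −1.83 ± 0.56 (SE, edgeR adjusted P = 0.0791). Csrp3, the muscle LIM protein, had −2.39 ± 0.89 (SE, edgeR adjusted P = 0.127). Mb (myoglobin) and Fabp3, the muscle fatty acid binding protein, had values of −0.21 and 0.29.

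Among 14 regulators of the slow program, edgeR called Mef2c and no other between the HFD and control groups. Mef2c, a transcription factor that activates many muscle genes, was at 136, 179.6, 82.0, and 181 CPM in the control mice and at 421, 526, 541, and 340.2 CPM in the HFD mice. It rose by a log2 fold change of 1.66 ± 0.27 (SE, edgeR adjusted P = 0.0149, with 1.32% of all genes called as higher), and all HFD mice were above all control mice, as for 8.83% of all genes. With the most abundant transcript alone, the log2 fold change of Mef2c was 0.49 and the call was lost (edgeR adjusted P = 0.666). At an unadjusted P below 0.05, 7 of the 14 regulators were higher (11.7% of all genes) and 1 was lower (12.5% of all genes). DESeq2 called 5 of the 14 as higher (Mef2c, Ppp3ca, Ppp3r1, Rcan1, and Tead1), against 5.43% of all genes. The lower one was Prox1, a factor of slow fibers, with −0.93 ± 0.35 (SE, edgeR adjusted P = 0.131). With RSV, Mef2c was at 126.7 to 250.4 CPM. Against HFD it had a log2 fold change of −1.17 ± 0.27 (SE, edgeR adjusted P = 0.999). DESeq2 called it as lower, against 0.0326% of all genes. With metformin, Mef2c had −0.64 ± 0.26 against HFD (SE, edgeR adjusted P = 0.618), and DESeq2 did not call it. At an unadjusted P below 0.05, Mef2c and Rcan1 were the 2 of the 14 regulators lower than in HFD with either drug. Of all genes, 1.89% were so with RSV and 2.79% with metformin. Of the 14 fast counterparts, 0 were called by edgeR and 7 by DESeq2 as higher in HFD than in control mice, and 9 were higher at an unadjusted P below 0.05, against 11.7% of all genes. The fitted level was higher in HFD for 12 of the 14 and lower for 2, Myh2 and Myh1. Their log2 fold changes were −1.49 and −0.33 (edgeR adjusted P = 0.228 and 0.711). Without control mouse 1, edgeR called 8 of these 14 and 3 of the 14 regulators (Mef2c, Ppp3r1, and Sox6) as higher, against 3.04% of all genes. Myh4 was at 54143 CPM in control mouse 1, at 27329, 28840.4, and 29210.2 CPM in control mice 2 to 4, and at 51671 to 58964 CPM in HFD mice. Of 8 sarcomere genes that all fibers use, 0 were called by either tool and 0 were below an unadjusted P of 0.05.

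Markers of other cell types were read beside these values. The heart list is of interest because the slow genes are also cardiac genes. Of its 8 genes, 6 were in the table, and their sum ranged from 75.4 to 142.8 CPM in control mice, 42.1 to 97.6 CPM in HFD mice, 65.7 to 197 CPM with RSV, and 66.0 to 96.9 CPM with metformin. The defining Nppa was at most 0.156 CPM and Tnni3 at most 0.418 CPM in any mouse, and most of the sum was Actc1. Myh6, the near-identical neighbor of Myh7 with which it can share reads, ranged from 0.621 to 29.0 CPM, with the maximum in control mouse 2. Schwann cell markers (4 of 4 genes) summed to 49.1, 171, 149, and 51.1 CPM in control mice 1 to 4, 35.0 to 52.8 CPM in HFD mice, 68.7, 326, 35.2, and 108.8 CPM in RSV-treated mice 1 to 4, and 36.7 to 64.2 CPM with metformin. White adipocyte markers (5 of 5) summed to 955 to 4252 CPM in control mice, 198 to 943 CPM in HFD mice, 281 to 1101 CPM with RSV, and 207 to 3983 CPM with metformin. Brown adipocyte markers (3 of 3) summed to 25.4 to 742 CPM in control mice, at most 3.44 CPM in HFD mice, 1.99 to 22.5 CPM with RSV, and 1.29 to 173 CPM with metformin. Smooth muscle (5 of 5), endothelial (3 of 3), and macrophage (3 of 3) markers summed to 120.3 to 346, 207 to 339, and 30.6 to 104 CPM over all 16 mice. Erythroid markers (4 of 4) summed to 339 to 836 CPM in control mice, 340.5 to 449 CPM in HFD mice, 484 to 1279 CPM with RSV, and 472 to 1319 CPM with metformin, so that every treated mouse was above every HFD mouse. Hba-a1, Hbb-bs, and Hbb-bt each showed this in both treated groups, whereas Alas2 overlapped in both. Of all genes tested, 1.88% were above every HFD mouse in every RSV-treated mouse, and 1.83% in every metformin-treated mouse. Both adipocyte sums were higher in every control mouse than in any HFD mouse, control mouse 1 included, and the Schwann cell sum was so in control mice 2 and 3. The margin of the white sum was narrow, 955 against 943 CPM. Of its genes, Cfd and Fabp4 showed this pattern, as did 9.44% of all genes tested. Adipoq and Plin1 overlapped, and Lep had a higher fitted level in HFD (log2 fold change 1.40). Ucp1, Cidea, and Elovl3 of the brown sum each showed the pattern. The part of these cells in the differences of the slow genes was not tested.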

How the data were processed

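Per the labels and the paper, total RNA of 16 skeletal muscles was depleted of ribosomal RNA and sequenced on an Illumina NovaSeq, and the submitters' processing notes name fastp, HISAT2, and GRCm38. The authors counted fragments with StringTie and deposited expected counts (whole numbers, not normalized) and FPKM values for 82388 mRNA transcripts. Each deposited FPKM value equals the count per length and per library, with a library larger than the mRNA total. The coordinates of 97.7% of the transcripts equal those of GENCODE M21. In 4 cases, a transcript split over 2 lines was joined. The lncRNA table was not used.

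Expected counts were summed by gene name. Low genes were removed by filterByExpr (at least 10 counts by group, at least 15 in total), libraries were scaled by TMM, and fitted in 1 edgeR 4.0.16 quasi-likelihood model (R 4.3.3) to all 16 mice, with Benjamini-Hochberg adjustment over 15364 genes, a call at an adjusted P below 0.05, and SE as the absolute log2 fold change divided by the root of F. The study's limits (P below 0.05, absolute log2 fold change above 1), applied here to the unadjusted P, were an alternative, as were DESeq2 1.42.0, no TMM, no filter, the most abundant transcript, fewer groups in the fit, and leaving out each mouse. Single shares were compared by exact permutation tests (scipy 1.17.1). The fit was tested on simulated counts. The depth left the spread between mice (common coefficient 0.261) as the main source of error, and intervals are not given for single counts.

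The members and lists were chosen with earlier results of these data known. Named were all members, 4 lists (other slow fiber genes, regulators, fast counterparts, and sarcomere genes), and the 10 other genes with the highest mean Pearson correlation of log2 CPM (prior count 2, group means subtracted) with Myh7, Tnni1, and Tnnt1. Strit1 of the first list was not tested. Promoter windows and motif counts came from RefSeq sequences on GRCm38.p6. The smooth muscle, endothelium, and macrophage marker lists were also summed.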

Additional observations from a re-analysis of the deposited data

Results flagged for a closer look

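In each group of 4 mice, the gap of the highest or lowest mouse to its nearest neighbor was compared with the range of the group for each of the 10 genes, which gives 40 sets. The gap was above Dixon's 95% critical value in 3 sets, where chance gives about 1 in 20. Tnnc1 was at 16.1 CPM in HFD + metformin mouse 2, against 4.92 to 5.49 CPM in the other mice of that group. Atp2a2 was at 153 CPM in HFD mouse 3, against 91.1 to 97.6 CPM in the other HFD mice. Casq2 was at 8.77 CPM in HFD mouse 4, against 13.1 to 13.4 CPM in the other HFD mice. On log2 CPM, a scale tried after the values were seen, 8 of the 40 sets were above the critical value, and 3 of these were the low values of control mouse 1 for Myh7, Myl2, and Tnnc1.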

How the results depend on the processing

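For HFD against control, the number of the 10 genes called was 0 in the edgeR fit to 16 mice. It was 8 with DESeq2, 8 at an unadjusted P below 0.05 with an absolute log2 fold change above 1, 1 in the fit to 12 mice without metformin, and between 0 and 7 when single mice were left out (7 without control mouse 1, and 1 without HFD + metformin mouse 3). The unadjusted rule also gave 5 genes in HFD + RSV against HFD and 4 in HFD + metformin against control. The cause of the difference between edgeR and DESeq2 was not tested, and DESeq2 called 1544 genes in all in HFD against control where edgeR called 374. In that comparison, edgeR called between 16 (without control mouse 2) and 1588 genes (without HFD + metformin mouse 3) when single mice were left out. In the other 5 comparisons, the count was 0 in every alternative but this rule. Over HFD against control and both treatments against HFD, the sign of a log2 fold change turned in 5 of 651 refits, all of Pln. Without single mice, Pln ran from −0.39 to 0.29 with RSV and from −0.31 to 0.50 with metformin, both against HFD. With its most abundant transcript alone, Tpm3 had −3.50 in HFD against control (edgeR adjusted P = 0.120), and Mef2c had 0.49 in place of 1.66 (edgeR adjusted P = 0.666). The difference in Myh7 share between HFD + RSV and HFD + metformin was 0.183 percentage points, −0.00951 with the most abundant transcripts, and from −0.0150 to 0.294 when single mice were left out. No paired analysis was possible because the labels give no replicate numbers shared between groups. The lowest values of Myl3, Tnnc1, Tnni1, and Tnnt1 rest on 13 to 20 counts. Pln held 4 to 79 counts over all 16 mice, and its lowest value rests on 4.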

Other observations

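The deposited counts split Myh7 between 2 transcripts that encode the same number of residues (1935) and start at the same base but differ in length, Myh7-204 (6230 bases) and Myh7-201 (6135 bases). Myh7-204 held 83.6%, 82.7%, and 87.2% of the Myh7 counts in control mice 2 to 4 and 75.4% to 79.0% in the HFD + metformin group, but 17.7% to 40.5% in the HFD + RSV group. In HFD + RSV mouse 4, it held 4296 counts against 7426 of Myh7-201, and in control mouse 2 it held 23820 against 4376. In the HFD group, its share ran from 3.77% to 81.4% on 6 to 645 counts, and in control mouse 1 all 50 counts were assigned to Myh7-201. The share was noticed after the values were seen, it was not tested, and it depends on how the counting program divided reads between overlapping transcripts.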
